A study of Mus musculus with 12 samples.

Results

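Expression of 9 genes that encode glial trophic factors or their receptor was examined in RNA-seq of cultured primary mouse astrocytes. The genes were taken by name: the neurotrophins *Bdnf* and *Ntf3*, the glial cell line-derived factor *Gdnf*, the cytokines *Cntf* and *Lif*, the heparin-binding factors *Mdk* (midkine) and *Ptn* (pleiotrophin), the vascular growth factor *Vegfa*, and *Ntrk2*, which encodes TrkB, the receptor for BDNF. These are 9 of the 18903 genes in the count table, each under 1 identifier, and all 9 were among the 17938 genes that passed the filter on low counts. The 12 libraries form 6 groups of 2: the genotypes labelled WT and cKO, each with brains taken at postnatal day 1 (P1), 6 (P6) and 8 (P8). The cKO mice carried hGFAP-cre and a pair of floxed *Rack7* alleles (hGFAP-cre::*Rack7* fl/fl), and the WT mice carried the same Cre with unfloxed alleles (hGFAP-cre::*Rack7* +/+), so Cre is shared by all groups. In this line Cre acts from the embryonic neural stem cells of the pallium onward. The floxed allele was made in C57BL/6 zygotes, and the strain of the hGFAP-cre line is not stated. The postnatal day is the age of the brain: meninges were stripped off, the cells grew in astrocyte medium, were shaken to detach microglia and oligodendrocytes, and were cultured again before RNA was taken. Brains of different ages gave different cultures, so age and culture preparation cannot be told apart in any comparison of time points. Whether the 2 libraries of a group came from separate animals or cultures is not stated beyond the words for a biological repeat, so the p-values measure the spread between these libraries.

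Trophic factors are secreted proteins that keep neurons and glia alive and guide their growth and repair. BDNF and neurotrophin-3 signal through Trk receptor kinases, and astrocytes carry mostly a truncated TrkB that lacks the kinase. GDNF binds a GFRα co-receptor that recruits the kinase RET or the adhesion molecule NCAM. CNTF and LIF share the receptor chains LIFR and gp130 (*Il6st*) and act through JAK and STAT3, a pathway known for driving astrocyte differentiation and the reactive state. Midkine and pleiotrophin bind the phosphatase receptor PTPRZ, syndecans and LRP1, and VEGF-A binds FLT1, KDR and the neuropilins. Astrocytes are known as a source of most of these ligands in the developing and injured brain.

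The labels and the tissue were checked first. RACK7 is encoded by *Zmynd8*, whose CPM (the count scaled to a common library size by TMM) lay between 99.98 and 136 in the 6 libraries labelled WT and between 160.4 and 242 in the 6 labelled cKO. The cKO label thus went with more *Zmynd8*, against the genotype (log2 fold change 0.65, 1.04 and 0.70 at P1, P6 and P8), and a whole-gene count does not test for the deleted exons 3 and 4. By the study's account, an immunoblot of RACK7 protein in its WT and cKO primary astrocytes bore out the genotypes. Its chromatin immunoprecipitation of RACK7 gave far fewer peaks in cKO than in WT astrocytes. Neither measure is analysed here. Every direction below is therefore given between libraries by their labels. Of 10 astrocyte markers, 9 were in the table and none was at 0 in any group. Their summed CPM was 2216 to 2253 at P1 with the WT label and 2109 to 2154 with the cKO label, 1518 to 1705 and 1404 to 1542 at P6, and 1566 to 1949 and 687 to 702 at P8. Markers of other cells were present too. The sum of 6 of 7 fibroblast markers, collagens among them, ran from 362 to 375 in P1 WT and from 2397 to 2434 in P1 cKO, from 6599 to 6653 in P6 WT and from 2409 to 2586 in P6 cKO, and from 25706 to 25838 in P8 WT and from 8074 to 8323 in P8 cKO. By the test described next, each of the 6 was higher with the cKO label at P1 and lower at both later ages. Of all genes, 4.01% were higher at P1, and 6.38% and 8.37% were lower at P6 and P8. Of the 6 markers, 1 was at 0 in P6 cKO. The 8 microglial markers summed to between 1851 and 2852 CPM in 5 groups and to 3867 to 3870 in P8 cKO. In such bulk samples fewer cells of a type and less RNA per cell cannot be told apart. Totals ran from 54413504 to 89183250 counts per library.

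**Figure D1:**
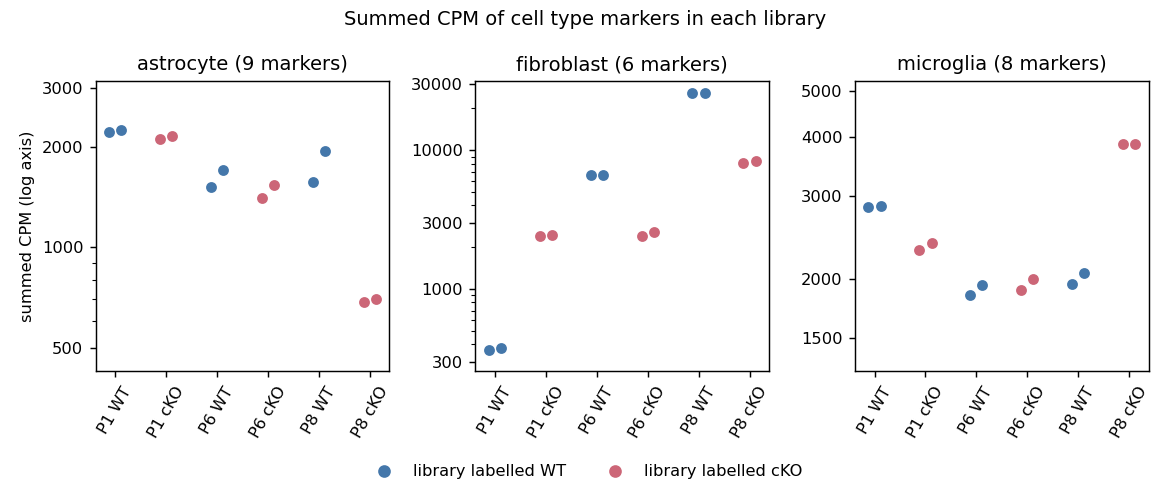
Summed CPM (log axis) of the astrocyte, fibroblast and microglial markers in each library, in 6 groups of 2 with the lower library drawn on the left; blue points carry the WT label and red points the cKO label. The astrocyte sum is lowest in P8 cKO (687 to 702), the fibroblast sum is highest in P8 WT (25706 to 25838), and the microglial sum is highest in P8 cKO (3867 to 3870).

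A gene was called changed where the Benjamini-Hochberg adjusted p of edgeR's quasi-likelihood test, over all 17938 genes, was below 0.05 and the fold change was at least 1.5. Between the labels, 5 of the 9 genes were called at P1, all higher with the cKO label (*Bdnf*, *Lif*, *Mdk*, *Ptn* and *Vegfa*), where 4.9% of all genes were called, 4.01% higher and 0.892% lower. With a fold of at least 2, *Lif* and *Mdk* remained at P1, 2 of 9 against 3.12%. At P6, *Gdnf*, *Cntf* and *Lif* were higher and *Mdk* was lower, 4 of 9 against 13.5% of all genes (7.16% higher and 6.38% lower). At P8, *Gdnf*, *Cntf* and *Lif* were higher and *Mdk*, *Ptn* and *Ntrk2* were lower, 6 of 9 against 19.6% of all genes (11.2% higher and 8.37% lower). The libraries of the 2 labels did not overlap for 9 of the 9 genes at P1, 7 at P6 and 9 at P8, which also held for 51.2%, 59% and 70.8% of all genes. The median log2 difference over the 9 genes was 0.75, -0.07 and -0.14 at P1, P6 and P8, and over all tested genes it was 0, 0 and 0.01. *Lif* was called higher at every time point, *Mdk* was called at every time point with a turn in direction, and *Ntf3* was called at none. The genes were taken with earlier results of these libraries known, so these shares describe the 9 genes and are no test of them as a set.

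**Figure D2:**
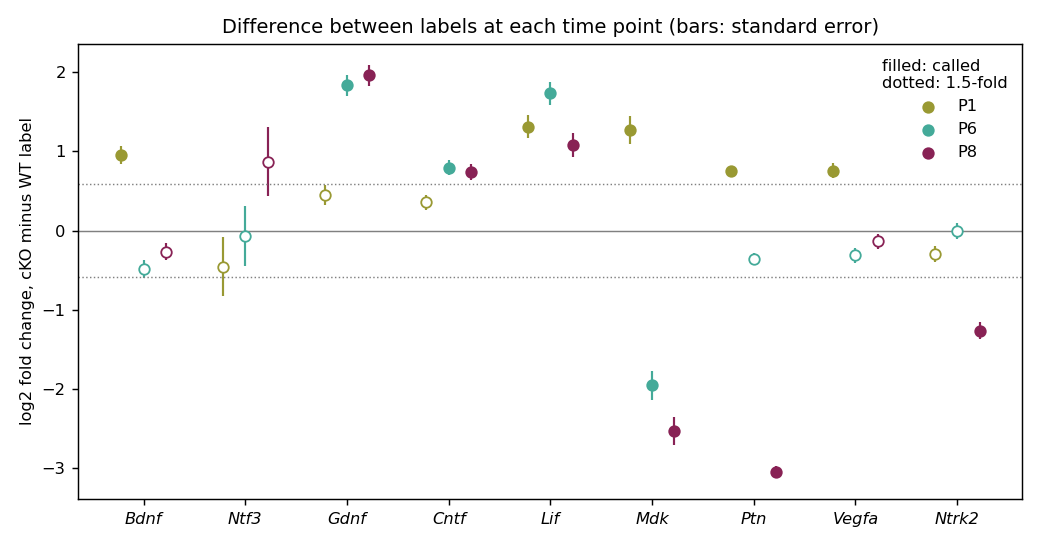
Log2 fold change between libraries labelled cKO and WT (vertical axis, above 0 is higher with the cKO label) for the 9 genes at P1, P6 and P8, with bars for the standard error; filled points passed the call and dotted lines mark a fold change of 1.5. *Lif* is filled above 0 at all 3 time points, *Mdk* moves from 1.27 at P1 to -2.53 at P8, and *Ptn* from 0.75 to -3.05.

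The upstream sequences of 5 of the genes are shown because these genes include the 3 that were higher with the cKO label at P6 and P8 and a pair that were lower at P8. Each is the 250 bases before a RefSeq transcript start on GRCm38.p6, written 5′ to 3′ on the gene's strand, with CG dinucleotides in capitals. RefSeq windows matched 8 of the 9 genes (17 windows in all) and *Mdk* had none.
Lif (chr11:4257318-4257567, + strand): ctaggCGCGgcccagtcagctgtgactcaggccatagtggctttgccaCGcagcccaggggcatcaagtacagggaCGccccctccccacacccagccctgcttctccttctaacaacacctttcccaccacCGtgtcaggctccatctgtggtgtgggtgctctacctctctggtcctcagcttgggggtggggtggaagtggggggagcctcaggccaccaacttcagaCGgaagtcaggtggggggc
Gdnf (chr15:7809798-7810047, + strand): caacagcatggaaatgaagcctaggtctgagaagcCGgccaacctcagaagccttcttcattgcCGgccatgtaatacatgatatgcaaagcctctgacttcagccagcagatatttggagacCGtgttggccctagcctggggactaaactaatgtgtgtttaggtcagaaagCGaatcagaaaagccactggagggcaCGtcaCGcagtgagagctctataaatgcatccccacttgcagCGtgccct
Cntf (chr19:12765633-12765882, - strand): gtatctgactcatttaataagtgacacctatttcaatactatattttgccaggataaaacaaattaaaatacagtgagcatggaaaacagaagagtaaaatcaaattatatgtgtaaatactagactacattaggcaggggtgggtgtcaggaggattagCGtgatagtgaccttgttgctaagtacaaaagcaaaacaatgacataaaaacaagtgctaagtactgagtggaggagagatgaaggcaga
Ptn (chr6:36810180-36810429, - strand): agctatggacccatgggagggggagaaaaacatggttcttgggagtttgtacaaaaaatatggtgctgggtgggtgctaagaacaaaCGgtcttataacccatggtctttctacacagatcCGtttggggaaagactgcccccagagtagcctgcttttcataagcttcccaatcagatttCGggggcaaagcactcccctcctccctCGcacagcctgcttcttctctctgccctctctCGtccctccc
Ntrk2 (chr13:58806319-58806568, + strand): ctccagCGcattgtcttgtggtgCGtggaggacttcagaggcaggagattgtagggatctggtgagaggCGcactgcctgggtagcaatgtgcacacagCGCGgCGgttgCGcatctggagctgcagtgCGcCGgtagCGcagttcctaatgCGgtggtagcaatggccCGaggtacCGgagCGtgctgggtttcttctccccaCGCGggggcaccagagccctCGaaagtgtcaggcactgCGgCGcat
In windows that ran on to 50 bases after the start (300 bases), *Ntrk2* had 23 CG dinucleotides and *Cntf* had 3, against a median of 7 over 32851 RefSeq windows of that length. *Lif* had 7, *Ptn* had 6 and the *Gdnf* window shown had 11. A count as high as that of *Ntrk2* was found in 21.5% of windows and one as high as that of *Cntf* in 76.7%. The letters TATAAA (the core of the TATA box), searched on both strands as were all the motifs, were in the *Gdnf* window shown and in 13.6% of all windows. GGGCGG, a GC box, was in the *Ntrk2* window and in 35.7% of all windows. ACGTG, 1 form of the core of a hypoxia response element, was in 1 of 2 windows each of *Gdnf* (the one shown), *Vegfa* and *Ntf3*. It was also in 2 of 7 of *Bdnf* and in 19.6% of all. The form GCGTG was not searched. Neither TGACGTCA, a cyclic AMP response element in 1.79% of windows, which shares the letters ACGT with ACGTG, nor the STAT core TTCNNNGAA, in 8.3% of windows, was in any of the 5 windows. These are matches of letters in a short window and no statement about binding.

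**Figure D3:**
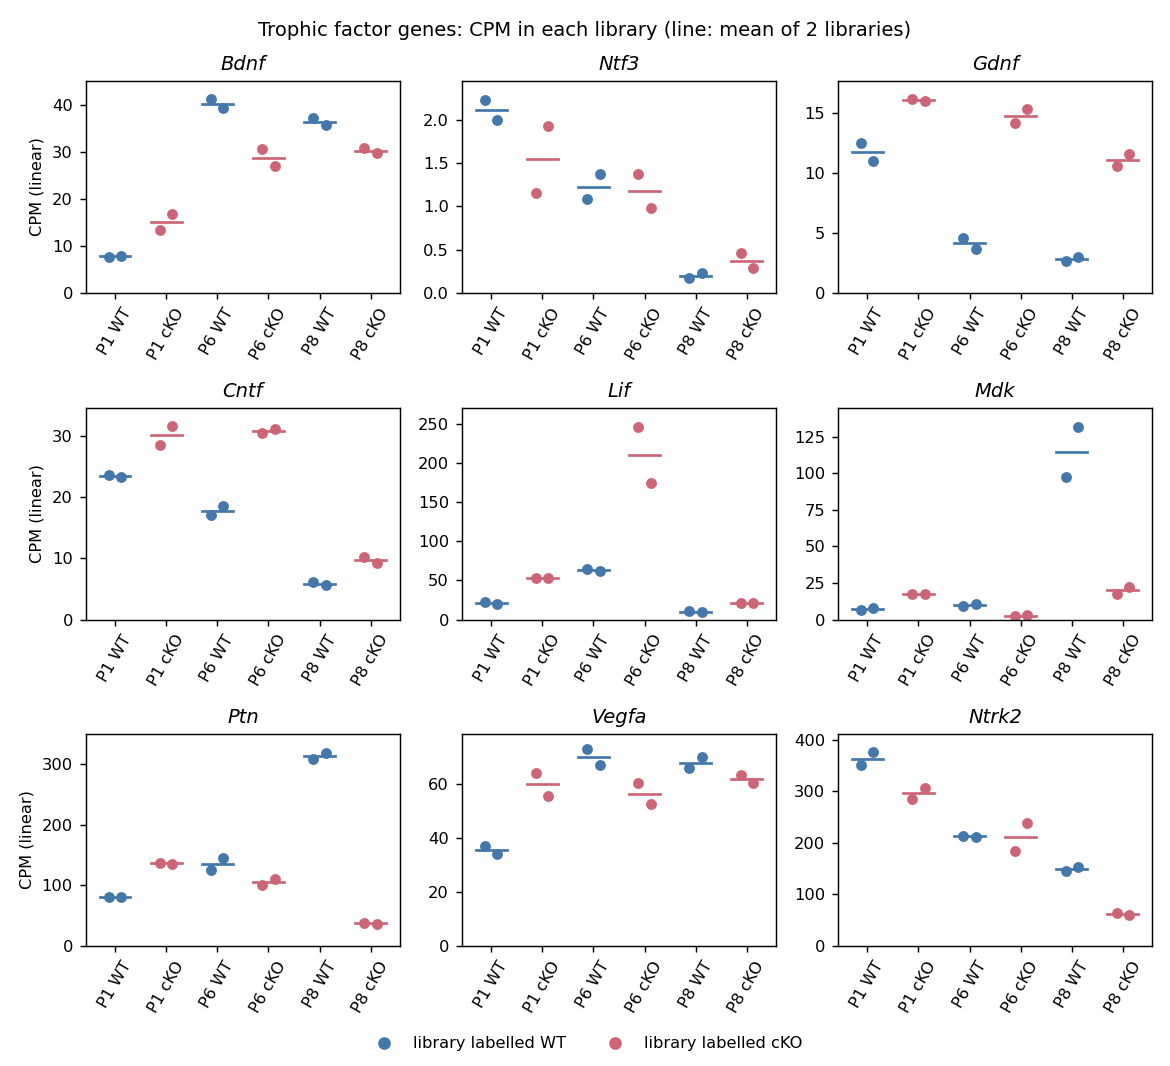
CPM (linear axes starting at 0) of the 9 genes in each of the 12 libraries, in 6 groups of 2, with a line at the group mean; blue carries the WT label and red the cKO label. *Lif* peaks in P6 cKO (246 and 174), *Mdk* and *Ptn* peak in P8 WT, and the group means of *Ntrk2* are lower at each later time point with either label.

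Among the neurotrophins, *Bdnf*, which supports synapses and neuron survival through TrkB (ENSMUSG00000048482, chr2:109674700-109727007, + strand, GRCm38), differed between the labels at P1 and was higher in the P6 and P8 cultures than at P1. In P1 WT its CPM was 7.74 and 7.83, and in P1 cKO 13.4 and 16.7. At P6 the values were 41.3 and 39.4 against 30.7 and 27.0, and at P8 they were 37.2 and 35.8 against 30.8 and 29.8. The labels did not overlap at any time point, with the cKO label above WT at P1 and below it at P6 and P8. The log2 difference was 0.95 at P1 (SE 0.112, edgeR adjusted p = 7.4e-04), a 1.93-fold higher level. It was -0.48 at P6 (SE 0.109, edgeR adjusted p = 0.00986), which did not reach the fold of 1.5, and -0.27 at P8 (edgeR adjusted p = 0.088). The change in the difference between the labels was itself tested, and from P1 to P6 it fell by 1.44 on the log2 scale (SE 0.156, edgeR adjusted p = 2.66e-04). *Bdnf* rose from P1 to P6 with both labels, by 2.37 with WT (5.18-fold) and by 0.94 with cKO (1.91-fold) on the log2 scale. From P6 to P8 the log2 change was -0.14 with WT and 0.07 with cKO, and neither passed the test. Ranked by mean CPM, the order was P6 WT (40.3 ± 1.37, SD, n = 2), P8 WT, P8 cKO, P6 cKO, P1 cKO and P1 WT (7.79 ± 0.06), and neighbours among the first 4 did not pass the adjusted threshold. The gene has 11 annotated transcripts from several starts, which a count per gene cannot separate, and 896 of its exon bases (14.4%) lie opposite the antisense gene *Gm45346*, whose reads cannot be told apart without a stated strand setting.

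*Ntf3* (ENSMUSG00000049107, chr6:126101412-126166910, - strand), which encodes neurotrophin-3, the main ligand of TrkC, had the lowest counts of the 9. Between 63 and 163 reads per library stood behind its values at P1 and P6, and between 10 and 34 at P8. Its CPM was 2.23 and 2.003 in P1 WT, 1.16 and 1.93 in P1 cKO, 1.09 and 1.37 in P6 WT, and 1.37 and 0.980 in P6 cKO. At P8 it was 0.168 and 0.235 with the WT label and 0.464 and 0.285 with the cKO label. The 4 libraries at P8 were all below the 8 earlier ones, and the labels overlapped at P6. *Ntf3* fell from P6 to P8, by 2.59 with WT (SE 0.428, edgeR adjusted p = 0.00138) and by 1.65 with cKO (SE 0.401, edgeR adjusted p = 0.00952) on the log2 scale. The call with the cKO label was lost when P6 cKO replicate 1 or P8 cKO replicate 2 was left out (edgeR adjusted p = 0.0566 and 0.0786). Between the labels the log2 difference was -0.45, -0.07 and 0.87 at P1, P6 and P8, with standard errors of 0.377, 0.381 and 0.433 and edgeR adjusted p = 0.565, 0.936 and 0.16. At this depth no difference between the labels was detectable for *Ntf3*.

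*Ntrk2* (ENSMUSG00000055254, chr13:58806569-59133970, + strand) differed between the labels at P8. Its CPM was 351 and 376 in P1 WT and 285 and 306 in P1 cKO. At P6 it was 213 and 212 with the WT label and 184 and 238 with the cKO label, so the cKO libraries lay on either side of the WT ones. At P8 it was 145 and 152 against 64.2 and 59.7, with both cKO libraries below both WT libraries. The log2 difference between the labels was -0.30 at P1 (SE 0.103, edgeR adjusted p = 0.125), -0.01 at P6 (edgeR adjusted p = 0.981) and -1.26 at P8 (SE 0.105, edgeR adjusted p = 1.56e-05). The level at P8 was thus 2.40-fold lower with the cKO label, and the difference had moved by -1.26 from P6 to P8 (SE 0.147, edgeR adjusted p = 2.94e-04). From P1 to P6 *Ntrk2* fell by 0.77 on the log2 scale with the WT label, and from P6 to P8 it fell by 1.77 with the cKO label. In the order of group means it ran from 363 ± 17.4 CPM in P1 WT through P1 cKO, P6 WT, P6 cKO and P8 WT to 61.9 ± 3.20 in P8 cKO (SD, n = 2), with P1 WT and P1 cKO, and P6 WT and P6 cKO, as the neighbours that did not differ by the adjusted p. The summed astrocyte markers moved with it at P8, 687 to 702 CPM in cKO against 1566 to 1949 in WT. Of the 9 markers, 5 were called lower (8.37% of all genes) and none higher. Their part in the result was not tested. *Ntrk2* has 10 annotated transcripts, and full-length and truncated TrkB cannot be told apart in a count per gene.

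The other genes of the neurotrophin family were read from a list of 5, all tested. With the cKO label 1 was lower at P1, 1 was higher and 2 were lower at P6, and 2 were lower at P8. Of all genes, 4.9%, 13.5% and 19.6% were called at these ages. *Ngfr*, the p75 receptor that binds all neurotrophins, was lower at every time point. Its mean CPM was 7.83 ± 1.08 against 3.32 ± 0.05 at P1, 14.0 ± 0.423 against 3.70 ± 0.285 at P6 and 19.7 ± 0.01 against 2.02 ± 0.636 at P8 (WT against cKO, SD, n = 2). These are log2 differences of -1.24, -1.91 and -3.29, with edgeR adjusted p = 0.00398, 9.16e-05 and 2.35e-06. *Ntrk3*, the TrkC receptor for neurotrophin-3, was lower at P6 (-0.82) and P8 (-1.64, edgeR adjusted p = 1.25e-04). With the WT label its mean was 3.23 CPM at P1, 17.9 at P6 and 50.9 at P8, so this receptor was highest where *Ntf3* was lowest. *Sorcs2*, a co-receptor of p75, was higher at P6 (1.11, 52.7 against 114 CPM).

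*Gdnf* (ENSMUSG00000022144, chr15:7810846-7837575, + strand), a survival factor for dopaminergic and motor neurons, was set apart by the WT label at the later time points. Its CPM was 12.5 and 11.01 in P1 WT and 16.1 and 16.0 in P1 cKO. At P6 it was 4.56 and 3.69 against 14.1 and 15.3, and at P8 it was 2.71 and 2.96 against 10.5 and 11.6. All libraries labelled cKO lay above those labelled WT of the same age. On the log2 scale the difference was 0.45 at P1 (SE 0.126, edgeR adjusted p = 0.0589), 1.83 at P6 (SE 0.132, edgeR adjusted p = 1.06e-05) and 1.96 at P8 (SE 0.134, edgeR adjusted p = 4.34e-06). In fold these were 1.37, 3.56 and 3.89. From P1 to P6 the difference between the labels grew by 1.38 on the log2 scale (SE 0.181, edgeR adjusted p = 8.42e-04), and from P6 to P8 it moved by 0.13 (edgeR adjusted p = 0.693). *Gdnf* fell by 1.51 from P1 to P6 with the WT label (2.85-fold, edgeR adjusted p = 1.63e-05), whereas with the cKO label the change was -0.13 (edgeR adjusted p = 0.467). By mean CPM the order was P1 cKO (16.1 ± 0.0890), P6 cKO, P1 WT, P8 cKO, P6 WT and P8 WT (2.84 ± 0.182), where neighbours among the first 4 did not pass the adjusted threshold. The fibroblast marker sum was higher with the cKO label at P1, as was *Gdnf* (362 to 375 CPM in P1 WT against 2397 to 2434 in P1 cKO). At P6 and P8 the sum was lower with the cKO label, where *Gdnf* was higher (6599 to 6653 CPM in P6 WT against 2409 to 2586 in P6 cKO). Its part in the *Gdnf* values was not tested.

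Of the 9 other genes listed for the GDNF family, 8 were tested. With the cKO label 1 was higher and 1 lower at P1, as at P6, and P8 had 3 higher and 0 lower. The shares of all genes called were 4.9%, 13.5% and 19.6%. *Gfra1*, the co-receptor that binds GDNF, was called at none, with log2 differences of -0.04, 0.41 and -0.55 and group means between 12.3 and 26.1 CPM. *Ret*, the signalling kinase, was lower at P1 (-1.23, edgeR adjusted p = 0.00436) and higher at P8 (1.19, edgeR adjusted p = 6.79e-04). Its mean at P8 was 10.6 ± 0.399 CPM with the WT label and 24.1 ± 0.560 with the cKO label. *Ncam1*, which can carry the GDNF signal without RET, was higher at P8 (0.99, 104 against 207 CPM). *Gfra2*, the neurturin co-receptor, was higher at P6 (2.02, 2.70 against 10.97 CPM), and the ligand *Artn* (artemin) was higher at P8 (2.39, 0.607 against 3.18 CPM). *Gfra4*, with means of at most 5.11 CPM, was higher at P1 (1.55) and lower at P6 (-1.15). *Gfra3* was not analysed here.

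*Lif* (ENSMUSG00000034394, chr11:4257557-4272514, + strand), the leukaemia inhibitory factor, was higher with the cKO label at all 3 time points. Its CPM was 22.8 and 19.9 in P1 WT and 52.6 and 53.1 in P1 cKO. At P6 it was 64.7 and 61.9 against 246 and 174, and at P8 it was 10.6 and 9.32 against 21.0 and 21.2. The labels did not overlap at any time point, and the P6 cKO libraries differed most between replicates. Between the labels the log2 difference was 1.31 at P1 (SE 0.146, edgeR adjusted p = 5.28e-04), 1.73 at P6 (SE 0.146, edgeR adjusted p = 2.96e-05) and 1.08 at P8 (SE 0.147, edgeR adjusted p = 3.88e-04). In fold these were 2.48, 3.32 and 2.12. The differences between time points in this effect did not pass the test, with 0.42 from P1 to P6 (edgeR adjusted p = 0.218) and -0.65 from P6 to P8 (edgeR adjusted p = 0.0515). With both labels *Lif* rose to P6 and then fell. The rise was 1.57 with WT and 1.99 with cKO, and it fell by 2.67 and by 3.32 on the log2 scale, 6.35-fold and 9.96-fold. The group means spanned 21.1-fold, from 9.97 ± 0.912 CPM in P8 WT to 210.2 ± 51.0 in P6 cKO (SD, n = 2). By mean CPM the order was P6 cKO, P6 WT, P1 cKO, P1 WT, P8 cKO and P8 WT. The neighbours P6 WT and P1 cKO (edgeR adjusted p = 0.185) did not pass the adjusted threshold, although their libraries did not overlap. P1 WT and P8 cKO overlapped and did not pass it either (edgeR adjusted p = 0.95).

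*Cntf* (ENSMUSG00000079415, chr19:12763660-12765632, - strand), the ciliary neurotrophic factor, differed in the same direction. Its CPM was 23.7 and 23.3 in P1 WT, 28.6 and 31.7 in P1 cKO, 17.0 and 18.6 in P6 WT, and 30.6 and 31.3 in P6 cKO. At P8 it was 6.07 and 5.58 with the WT label and 10.2 and 9.23 with the cKO label. At each age both cKO libraries lay above both WT libraries. Its log2 difference was 0.36 at P1 (SE 0.0936, edgeR adjusted p = 0.0445), which was under the fold of 1.5. It was 0.80 at P6 (SE 0.0942, edgeR adjusted p = 2.54e-04, 1.74-fold) and 0.74 at P8 (SE 0.0966, edgeR adjusted p = 2.97e-04, 1.67-fold). *Cntf* fell from P6 to P8 with both labels, by 1.61 with WT and by 1.67 with cKO on the log2 scale, and the highest groups, P6 cKO and P1 cKO, overlapped. Of the 1073 exon bases of *Cntf*, 847 (78.9%) are also annotated to *Zfp91* on the same strand, and no source used here states how such reads were counted. *Zfp91* was at 200.01 to 249.02 CPM in all libraries, so reads moved between the genes could change *Cntf* much and *Zfp91* little, and the *Cntf* values are uncertain. The log2 differences of *Zfp91* between the labels were -0.08, 0.21 and 0.17, and the part of shared reads in the *Cntf* values was not tested.

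The gp130 cytokine list held 9 further genes, all tested. With the cKO label 1 was higher and 0 lower at P1, 2 were higher and 2 lower at P6, and P8 had 3 higher and 2 lower. Over all genes 4.9%, 13.5% and 19.6% were called. *Il6*, an inflammatory cytokine that signals through gp130, was higher at every time point, by 1.23, 2.28 and 2.12 (edgeR adjusted p = 0.0022, 2.4e-05 and 1.69e-05). Its mean was 1.02 ± 0.185 CPM in P6 WT against 4.95 in P6 cKO, and 2.31 ± 0.0802 in P8 WT against 10.04 ± 1.15 in P8 cKO. Ligands that were called included *Clcf1*, a partner ligand at the CNTF receptor, at P6 (1.11) and P8 (0.77, edgeR adjusted p = 0.0499), and *Osm* (oncostatin M) at P8 (1.64), both higher. The P6 WT libraries of *Clcf1* lay far apart, at 35.1 and 68.5 CPM, against 102 and 121 in P6 cKO. The receptor chains that were called were all lower: *Il6st* (gp130) at P6 (-0.93, 499.8 against 262 CPM) and P8 (-0.77, 728 against 427 CPM), *Lifr* at P8 (-0.99, 57.6 against 29.0 CPM), and *Osmr* at P6 (-1.31, 142 against 57.4 CPM). The CNTF-specific chain *Cntfr* was called at none, with means between 3.52 and 8.56 CPM. At P8, where *Il6* and *Osm* were higher, the microglial marker sum was also higher with the cKO label, and its part in these values was not tested. Of the 8 markers, 5 were called higher and 1 lower at P8, where 11.2% and 8.37% of all genes were. At P6 the microglial sums were 1851 to 1938 CPM with the WT label and 1893 to 2005 with the cKO label. Of the 8 markers, 1 was called lower there and none higher (6.38% and 7.16% of all genes). The log2 differences of *Lif* and *Il6* at P6 were 1.73 and 2.28. At P1 the microglial sums were 2842 to 2852 CPM with the WT label and 2303 to 2385 with the cKO label. Of the 8 markers, 2 were called lower there and 0 higher (0.892% and 4.01% of all genes). *Lif* and *Il6* differed by 1.31 and 1.23 at P1. The part of microglia in the values at P1 and P6 was not tested.

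*Mdk* (ENSMUSG00000027239, chr2:91929805-91932297, - strand), the growth factor midkine, had the widest range of the 9 over the groups, 43.3-fold. Its CPM was 6.40 and 7.95 in P1 WT and 17.3 and 17.5 in P1 cKO. At P6 it was 9.56 and 10.9 with the WT label and 2.50 and 2.80 with the cKO label, and at P8 it was 97.6 and 132 against 17.6 and 22.1. The cKO label was above WT at P1 and below it at P6 and P8, without overlap. In log2 terms the difference was 1.27 at P1 (SE 0.174, edgeR adjusted p = 0.00188), -1.95 at P6 (SE 0.184, edgeR adjusted p = 6.11e-05) and -2.53 at P8 (SE 0.177, edgeR adjusted p = 5.18e-06). The turn from P1 to P6 was -3.22 in the test of the difference itself (SE 0.254, edgeR adjusted p = 3.09e-05). From P6 to P8 *Mdk* rose with both labels, by 3.48 with WT (11.2-fold) and by 2.91 with cKO (7.50-fold) on the log2 scale. From P1 to P6 it fell by 2.71 with the cKO label, while with the WT label the change of 0.51 was under the fold of 1.5. By mean CPM the order was P8 WT (115 ± 24.1), P8 cKO (19.9 ± 3.18), P1 cKO, P6 WT, P1 WT and P6 cKO (2.65 ± 0.214), and the neighbours P8 cKO and P1 cKO did not differ by the adjusted p (0.425).

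*Ptn* (ENSMUSG00000029838, chr6:36714929-36810220, - strand), pleiotrophin, is the closest relative of midkine and a neurite-promoting factor. Its CPM was 81.5 and 80.8 in P1 WT and 137 and 136 in P1 cKO, 125 and 145 in P6 WT and 101 and 110.0 in P6 cKO, and 308 and 319 in P8 WT and 38.8 and 37.0 in P8 cKO. As for *Mdk*, the cKO label was above WT at P1 and below it afterwards, without overlap. The log2 difference was 0.75 at P1 (SE 0.0706, edgeR adjusted p = 1.88e-04), -0.35 at P6 (SE 0.0702, edgeR adjusted p = 0.00533), under the fold of 1.5, and -3.05 at P8 (SE 0.0758, edgeR adjusted p = 9.06e-09). The level at P8 was 8.29-fold lower with the cKO label, the largest difference between labels among the 9 genes. The test of the change gave -1.10 from P1 to P6 and -2.70 from P6 to P8 (SE 0.0995 and 0.101, edgeR adjusted p = 7.83e-05 and 3.17e-07). The labels moved apart with time: *Ptn* rose with WT by 0.73 and then by 1.22 on the log2 scale, and with cKO it fell by 1.48 from P6 to P8. By mean CPM the order was P8 WT (314 ± 7.98), P1 cKO, P6 WT, P6 cKO, P1 WT and P8 cKO (37.9 ± 1.26), in which P1 cKO and P6 WT overlapped.

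The fibroblast marker sum was also above WT with the cKO label at P1 and below it at P6 and P8, as were *Mdk* and *Ptn*, and it too was highest in P8 WT. Its part in those results was not tested. Between P1 cKO and P6 cKO, where *Mdk* fell 6.56-fold, 3 of the 6 fibroblast markers were called lower and none higher (median log2 change -2.07). In that step 21.4% of all genes were called in either direction. The fibroblast sum, carried by *Col1a1* and *Col1a2*, was 2397 to 2434 and 2409 to 2586 CPM. Between P6 cKO and P8 cKO each of the 6 was called higher (24% of all genes were called in either direction). There *Mdk* rose while *Ptn* fell by 1.48 on the log2 scale.

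Of 7 receptors listed for midkine and pleiotrophin, 5 were tested. None was called at P1, and 1 was higher and 1 lower at P6 and again at P8, where 4.9%, 13.5% and 19.6% of all genes were called. *Ptprz1*, the phosphatase receptor of pleiotrophin, was higher with the cKO label at P6 (0.71, edgeR adjusted p = 5.58e-05), with means of 123 ± 2.26 against 201 ± 15.8 CPM. At P8 its difference was -0.41, under the fold of 1.5. *Sdc1* (syndecan-1) was lower at P6 (-0.82) and P8 (-0.84), and *Sdc3*, the neuronal syndecan, was higher at P8 (1.48, 296 ± 10.9 against 825 ± 15.5 CPM). *Sdc4* and *Lrp1* were called at none. *Alk* and *Ltk* were not analysed here.

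*Vegfa* (ENSMUSG00000023951, chr17:46016993-46032369, - strand), a factor that drives vessel growth and is induced by hypoxia, varied least, 1.97-fold between its lowest and highest group. Its CPM was 37.0 and 33.9 in P1 WT and 64.1 and 55.6 in P1 cKO. At P6 it was 72.7 and 67.0 against 60.2 and 52.4, and at P8 it was 65.9 and 69.7 against 63.1 and 60.2. P1 WT stood below the 10 other libraries. By log2 the labels differed by 0.75 at P1 (SE 0.0961, edgeR adjusted p = 0.00121, 1.69-fold), -0.31 at P6 (SE 0.0953, edgeR adjusted p = 0.0403), under the fold of 1.5, and -0.14 at P8 (edgeR adjusted p = 0.318). From P1 to P6 the difference between the labels moved by -1.07 (SE 0.135, edgeR adjusted p = 7.04e-04). *Vegfa* rose by 0.98 on the log2 scale from P1 to P6 with WT, and with cKO the change was -0.09 (edgeR adjusted p = 0.513). No neighbours among P6 WT, P8 WT, P8 cKO, P1 cKO and P6 cKO, in that order of means, passed the adjusted threshold. Of 11 hypoxia-inducible genes tested, 0 were called at P1, 2 at P6 and 3 at P8, which is near the shares called over all genes (4.9%, 13.5% and 19.6%). At P6, *Car9* (1.23) and *P4ha1* (0.73) were higher, and at P8 *Adm* (1.09) and *Car9* (0.91) were higher and *Egln3* was lower (-1.17). As for *Mdk*, *Ptn* and *Bdnf*, the fibroblast sum was higher with the cKO label at P1 and lower at P6 and P8, and its part in the *Vegfa* values was not tested.

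Of the 9 other genes listed for the VEGF family, all tested, 3 were higher and 0 lower with the cKO label at P1. At P6, 1 was higher and 3 were lower, and P8 had 3 higher and 1 lower. For all genes the shares called were 4.9%, 13.5% and 19.6%. *Pgf*, the placental growth factor that binds FLT1, was higher at P1 (1.96) and lower at P6 (-4.07) and P8 (-2.93). Its means were 0.488 against 1.87 CPM at P1, 23.1 against 1.37 at P6 and 29.9 against 3.93 at P8 (WT against cKO). *Vegfd*, a lymphatic growth factor, was lower at P6 (-3.24, 9.83 against 1.04 CPM), and its relative *Vegfc* was higher at P1 (0.66). Among the receptors, *Flt1* was higher at P1 (1.5) and P8 (1.92), *Flt4* at P6 (2.76) and P8 (3.09, 0.818 against 6.92 CPM), and *Nrp2* at P8 (0.80), and *Kdr* was lower at P6 (-0.90). *Nrp1* and *Vegfb* were called at none. Of 6 endothelial markers listed, 1 was in the table, *Cdh5*, and 1 gene cannot show a change in endothelial cells. *Cdh5* was 3.05 higher on the log2 scale with the cKO label at P1 and lower by 6.03 and 3.76 at P6 and P8. Its part in these values was not tested.

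**Figure D4:**
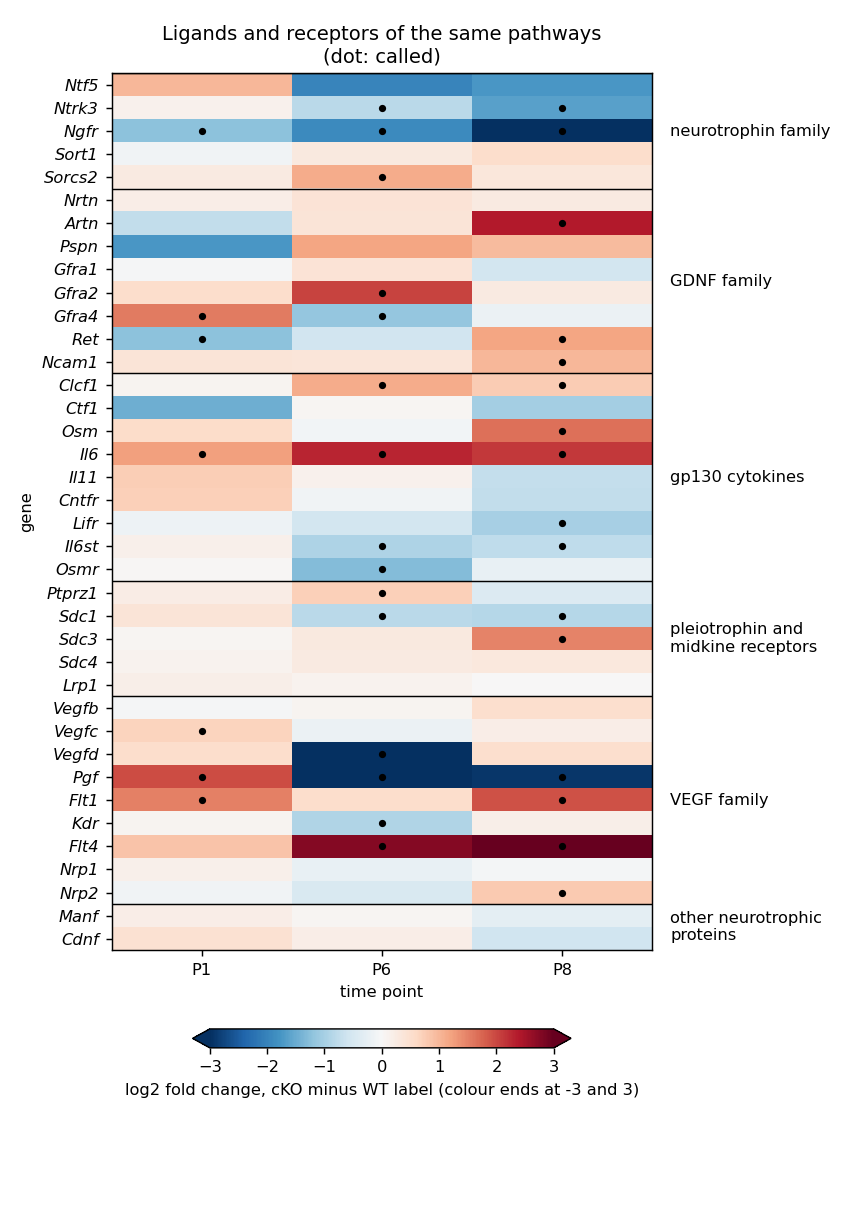
Log2 fold change between libraries labelled cKO and WT (colour, red higher and blue lower with the cKO label, ends at -3 and 3) at P1, P6 and P8 (columns) for the 38 tested ligands and receptors of the same pathways (rows, grouped by list); dots mark called genes. *Ngfr* is blue with a dot in all 3 columns, *Il6* is red with a dot in all 3, and *Pgf* turns from red at P1 (1.96) to blue at P6 (-4.07).

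Over the 41 genes of these lists, 38 were tested, and with the cKO label 5 were higher and 2 lower at P1, 6 higher and 9 lower at P6, and 10 higher and 6 lower at P8, which is 7, 15 and 16 of the 38 against the shares of all genes given above. The median log2 difference over the 38 was 0.19, 0.08 and 0.19. The neurotrophic proteins *Manf* and *Cdnf* were called at none.

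Levels can be compared between genes only per length, so FPKM was computed from the CPM and the length of the merged exons. For genes with several transcripts the merged length can exceed that of any single transcript, which lowers the FPKM. It was 19292 bases for *Ntrk2* (10 transcripts) and 6217 for *Bdnf* (11), against 1073 for *Cntf* (1), so the order between genes is approximate. In P1 WT the mean FPKM was 23.6 for *Ptn*, 21.9 for *Cntf* (which shares exons with *Zfp91*), 18.8 for *Ntrk2*, 8.28 for *Vegfa*, 5.42 for *Mdk*, 4.91 for *Lif*, 3.20 for *Gdnf*, 1.25 for *Bdnf* and 1.23 for *Ntf3*. By this measure pleiotrophin led the ligands and the neurotrophins were lowest. In P6 cKO *Lif* was highest at 48.3 FPKM, ahead of *Ptn* at 30.8 and *Cntf* at 28.8. In P8 WT *Ptn* (91.4) and *Mdk* (86.6) were far above *Vegfa* (15.8), the next by FPKM. In P8 cKO *Mdk* (15.0), *Vegfa* (14.4) and *Ptn* (11.03) were the highest.

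Within a label, *Bdnf*, *Lif*, *Ptn* and *Vegfa* rose and *Gdnf* and *Ntrk2* fell from P1 to P6 with WT, 6 of 9 where 23.1% of all genes were called (3 of 9, *Bdnf*, *Lif* and *Gdnf*, against 14.8% with a fold of at least 2). With cKO, *Bdnf* and *Lif* rose and *Mdk* fell, 3 of 9 against 21.4%. From P6 to P8, *Mdk* and *Ptn* rose and *Ntf3*, *Cntf* and *Lif* fell with WT, 5 of 9 against 18.9%. With cKO, *Mdk* rose and *Ntf3*, *Cntf*, *Lif*, *Ptn* and *Ntrk2* fell, 6 of 9 against 24%. The call of *Ntf3*, *Cntf*, *Lif* and *Mdk* in the P8 step thus had the same direction with both labels, and *Ptn* was called in opposite directions. The change of the label difference was called for 5 of the 9 from P1 to P6 (15.3% of all genes), for *Ptn* and *Ntrk2* from P6 to P8 (21.5%; 4 of 9 against 33.2% by an unadjusted p below 0.05), and for 6 from P1 to P8 (25.7%).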

How the data were processed

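RNA-seq of the 12 libraries was analysed from the table the authors deposited, which holds raw counts, whole numbers of reads per gene and not normalized. The authors mapped reads with Hisat2 to GRCm38 and used ballgown and DESeq2 for their own tests. Not given in the sources used here: the counting program, its annotation and strand setting, and the treatment of shared reads. Counts were tested in R 4.3.3 with edgeR 4.0.16 (TMM, filterByExpr, glmQLFit and glmQLFTest, limma 3.58.1) over all 12 libraries with 1 mean per group. The common biological coefficient of variation was 0.178. Calls needed a Benjamini-Hochberg adjusted p below 0.05 over 17938 genes and a fold change of at least 1.5, except that a change of the label difference between time points needed the adjusted p alone. Two-sided permutation of 2 against 2 libraries cannot go below p = 0.333, so it was not used. Totals were 54413504 to 89183250 counts (median 67180944.5), and replicates differed beyond counting noise (chi-square per degree of freedom 30.5 to 47.1). Positions, exon overlaps and lengths came from GENCODE vM21, and promoter windows from RefSeq on GRCm38.p6. DESeq2 1.42.0, its size factors, no filter, the compared groups alone, the replicate block, other cut-offs and leaving out each library were alternatives. The scripts were tested on simulated data.

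The 9 genes and all lists were chosen with earlier results of these data known. All 9 genes are named. Genes of the pathway lists are named where they were called between the labels at any time point or are a receptor or partner of a member, hypoxia-inducible genes where called, and for each of the 9 the 2 genes most like it by Pearson's r of log2 CPM (prior count 2) over the 12 libraries, among tested genes with a mean of at least 1 CPM. Some genes first listed are not reported here. Other data types of the study were not used here.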

Additional observations from a re-analysis of the deposited data

Results flagged for a closer look

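The difference between the cKO and WT labels changed between some time points for 6 of the 9 genes, for which no share over all genes was computed. By step, the test of the change itself passed for 5 genes from P1 to P6, 2 from P6 to P8 and 6 from P1 to P8. Of all genes, 15.3%, 21.5% and 25.7% passed (edgeR's quasi-likelihood test, Benjamini-Hochberg adjusted over all genes, n = 2 libraries a group). These tests share libraries, so they are given side by side. From P1 to P6 the log2 difference changed by -1.44 for *Bdnf*, 1.38 for *Gdnf*, -3.22 for *Mdk*, -1.10 for *Ptn* and -1.07 for *Vegfa*. Of these, *Bdnf*, *Mdk*, *Ptn* and *Vegfa* went from a higher level with the cKO label at P1 to a lower value at P6, and *Gdnf* became more different in the same direction. From P6 to P8 the change was -2.70 for *Ptn* (adjusted p = 3.17e-07) and -1.26 for *Ntrk2* (adjusted p = 2.94e-04), both toward a lower level with the cKO label. From P1 to P8 it was -1.22 for *Bdnf*, 1.51 for *Gdnf*, -3.80 for *Mdk*, -3.80 for *Ptn*, -0.89 for *Vegfa* and -0.97 for *Ntrk2*, with adjusted p between 2.18e-08 and 0.00106. The summed fibroblast markers also went from higher to lower with the cKO label between P1 and P6, and their part in these changes was not tested. *Cntf*, *Lif* and *Ntf3* passed this test between no time points.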

How the results depend on the processing

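The 90 log2 differences (9 genes in 10 comparisons) were recomputed under 17 alternatives, and none that was called turned in sign. Of 48 that were called, 47 stayed called in all 17, and *Ntf3* from P6 to P8 with the cKO label was lost without P6 cKO replicate 1 or P8 cKO replicate 2. Of 42 that were not called, 8 were called in some alternative. One was the change of the *Lif* difference from P6 to P8 (-0.65, adjusted p = 0.0515), which passed with DESeq2 size factors (adjusted p = 0.0431), with DESeq2 (0.00793) and without P6 cKO replicate 2 (0.00272). The others were the WT change of *Mdk* from P1 to P6 without P1 WT replicate 2 (0.68), the WT change of *Gdnf* from P6 to P8 without P6 WT replicate 2 or P8 WT replicate 2 (-0.69 and -0.61), the cKO change of *Ntrk2* from P1 to P6 without P6 cKO replicate 2 (-0.68), and the change of the label difference from P1 to P6 of *Lif* without P6 cKO replicate 2 (0.65), of *Ntrk2* without P6 cKO replicate 1 (0.46) and of *Cntf* with DESeq2 (0.45), beside *Mdk* under the block. With a fold change of at least 2, the members called fell from 5 to 2 between the labels at P1 and from 6 to 3 in WT from P1 to P6. With an unadjusted p below 0.05, the members whose label difference changed from P6 to P8 went from 2 to 4. Leaving out 1 library at a time gave 5 to 5, 4 to 4 and 6 to 6 members called between the labels at P1, P6 and P8, 6 to 7 and 5 to 6 in the WT steps, 3 to 4 and 5 to 6 in the cKO steps, and 5 to 6, 2 to 3 and 6 to 6 for changes of the label difference (P6 against P1, P8 against P6, P8 against P1). With 2 libraries a group, the library left alone is assumed to vary like the other groups.

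The labels share replicate numbers, but deviations of same-numbered libraries from their group means correlated only between -0.0496 and 0.104, so the numbers were not used as pairs. With the replicate block, 4 members in place of 2 changed their label difference from P6 to P8, *Lif* (adjusted p = 0.0342) and *Mdk* (adjusted p = 0.0323) being added (the cause was not tested), and no count of members called in the other comparisons moved by over 1.5 times.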

Other observations

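For each of the 9 genes the tested genes with the most similar log2 CPM over the 12 libraries were looked up, as a description without a test, since the 12 libraries share 6 groups and any gene that follows the same groups scores high. *Cntf* was followed most closely by *Col4a6* (a basement membrane collagen, Pearson's r = 0.996) and *Hunk* (0.993), and *Lif* by *Tnfrsf12a* (the TWEAK receptor, 0.991) and *Tagln* (an actin-binding protein of contractile cells, 0.986). *Bdnf* went with *Fhl2* (0.989) and *Tns2* (0.985), *Ntf3* with *Gpr85* (0.984) and *Fam204a* (0.973), and *Gdnf* with *Tacr1* (the substance P receptor, 0.978) and *Samd10* (0.975). *Ntrk2* went with *Gsdme* and *Mybl1* (both 0.983), *Ptn* with *Ildr2* (0.97) and *Rarb* (a retinoic acid receptor, 0.959), *Mdk* with *Fndc3a* (0.964) and *Adamts15* (0.962), and *Vegfa* with *Mmp2* (a matrix protease, 0.95) and *Gata6* (0.939). Among the 9 themselves, *Cntf* and *Ntf3* (0.908) and *Bdnf* and *Vegfa* (0.873) were the most alike, and *Cntf* and *Mdk* (-0.838) and *Lif* and *Mdk* (-0.822) ran most opposite.

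Of the other marker lists, the oligodendrocyte lineage (7 of 8 genes in the table) summed to 106 to 193 CPM over the libraries, the neuronal list (3 of 8) to 65.2 to 249, mural cells (5 of 7) to 1761 to 2943, the ependymal and choroid plexus list (6 genes) to 35.1 to 244, neural stem cells (4 of 6) to 673 to 2251 and proliferation (6 genes) to 348 to 597. With the cKO label the neural stem cell sum was higher at P6 (2223 to 2251 against 1233 to 1258) and lower at P8 (673 to 678 against 1079 to 1101). At each of these ages 2 of its 4 markers were called higher and 1 lower, with median log2 differences of -0.49 and 0.83. Of all genes, 13.5% and 19.6% were called in either direction. At P8 *Nes* (1.76) and *Sox2* (1.35) were higher and *Egfr* (-3.07) was lower. The neuronal sum was higher at P6 (232 to 249 against 116 to 125) and at P8 (176 to 178 against 65.2 to 68.5). *Stmn2* made up most of it, with 228 and 211 CPM in P6 cKO and 151.5 and 152.5 in P8 cKO. At each age 2 of the 3 genes were called higher (7.16% and 11.2% of all genes) and none lower. At P6 *Tubb3* was at 17.1 and 16.7 CPM with the cKO label against 18.3 and 16.7 with WT. The part of these marker lists in the values of the 9 genes was not tested.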
